A study of Homo sapiens with 4 samples.

Results

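By the array annotation, UBE3B, SMARCA2, DAXX and CDV3 are 4 genes that were each read by 2 probe sets. The responses of the 2 probe sets to RBM35A parted in the same direction in polysomal and in total RNA. For CDV3 the annotation of 1 of the 2 is uncertain, as given below. The members are 4 of 8225 genes on the array with a single-gene annotation, and their 8 probe sets are 8 of 10943. The genes were chosen from these measurements: a member was taken when the RBM35A+ minus RBM35A− difference of 1 probe set lay about 0.45 (log2) or more from that of the gene's other probe set, in both RNA fractions. The differences and departures that follow therefore describe the choice and were not tested.

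The arrays came from LS180, an established human colon carcinoma line. RBM35A, now named ESRP1, is an RNA-binding protein of epithelial cells. The RBM35A+ arrays hold RNA of Tet-off LS180-RBM35A cells, in which withdrawal of doxycycline for at least 6 days restored RBM35A protein, and the RBM35A− arrays hold RNA of cells that the labels call parental and that were kept in doxycycline. Polysomal RNA from sucrose gradients and total RNA extracted with TRIZOL were each hybridized to HG-U95Av2 arrays, giving 4 arrays in all: polysomal RBM35A+, polysomal RBM35A−, total RBM35A+ and total RBM35A−, with 1 array each. With no replicates, no difference has a replicate check or a p-value. Doxycycline cannot be told apart from RBM35A in these groups, nor can the construct if the parental cells lacked it. All groups shared the same line, and polysomal and total RNA also differed in how they were extracted.

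As background, ESRP1 binds GU-rich sequence in pre-mRNA and favours the epithelial pattern of alternative exons, of which those of CD44, FGFR2, ENAH and CTNND1 are well-known cases. A probe set on this array is a group of short oligonucleotides that together read a stretch of a transcript, in most cases toward its 3′ end. Different probe sets of a gene can thus lie on different exons, different 3′ ends or different transcript variants, and each has its own brightness, so that levels of different probe sets cannot be set against each other. A change of the whole gene would tend to move both probe sets the same way, but sets of different brightness need not move by the same amount. A departure alone therefore does not show a change of transcript variant.

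Each member has a separate role. UBE3B is a ubiquitin ligase of the HECT family, which passes ubiquitin to substrates through a catalytic cysteine. SMARCA2, also called BRM, is an ATPase of the SWI/SNF chromatin remodelling complexes, where it is the alternative to SMARCA4. DAXX is a histone chaperone that deposits histone H3.3 together with ATRX and resides in PML nuclear bodies. CDV3 is a small, widely expressed protein whose function is little known. In the curated RefSeq transcripts, UBE3B has 5 variants, SMARCA2 has 7, DAXX has 4 and CDV3 has 8, against a median of 3 (quartiles 1 and 5) over the 358 genes with at least 2 measured probe sets.

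The RefSeq table of transcription starts (GRCh38.p14) held 3 of the 4 members: UBE3B with 1 start, SMARCA2 with 4 and CDV3 with 2. Of the 287 genes with measured pairs that the table held, 35.2% had more than 1 start and 15 (5.23%) had 4 or more. The 80 bases before each start of SMARCA2 are shown because transcripts that begin at the inner starts lack the first part of the gene, so that probe sets in different places need not read the same transcripts. Capitals mark CG pairs, and all 4 windows lie on the plus strand of chromosome 9.
SMARCA2 start 1, chr9:2015267-2015346: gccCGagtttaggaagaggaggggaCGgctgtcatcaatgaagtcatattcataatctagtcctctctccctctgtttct
SMARCA2 start 2, chr9:2021865-2021944: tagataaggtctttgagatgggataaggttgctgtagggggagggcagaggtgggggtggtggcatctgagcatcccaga
SMARCA2 start 3, chr9:2157582-2157661: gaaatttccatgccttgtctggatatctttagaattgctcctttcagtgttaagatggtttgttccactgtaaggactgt
SMARCA2 start 4, chr9:2158384-2158463: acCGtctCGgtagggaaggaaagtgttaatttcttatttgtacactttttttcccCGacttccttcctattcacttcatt

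The third and the fourth SMARCA2 start lie 142315 and 143117 bases downstream of the first. In the 300-base window from 250 bases before to 50 after the start, the first SMARCA2 start had 30 CG pairs, and the other 3 had 3, 4 and 9, against a median of 14 over the 35116 windows of the table. The 2 starts of CDV3 are shown for the same reason and lie 748 bases apart on the plus strand of chromosome 3.
CDV3 start 1, chr3:133573606-133573685: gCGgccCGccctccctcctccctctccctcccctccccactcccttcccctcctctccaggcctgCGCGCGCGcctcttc
CDV3 start 2, chr3:133574354-133574433: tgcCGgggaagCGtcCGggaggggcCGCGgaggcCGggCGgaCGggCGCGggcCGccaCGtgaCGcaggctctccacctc

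Both CDV3 windows were rich in CG pairs, with 24 and 47 in their 300 bases. Where along each transcript the 8 probe sets lie was not used here, and the array data carry no genome build, so the starts are a description of the genes and were not tied to the probe sets.

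Of the 12626 probe sets, 34.2% had log2 values of at least 5 on each polysomal array and 33.8% on each total RNA array. All 8 member probe sets were above 5 on all 4 arrays, so none of their values was raised to the floor of 5 that was set for dim signals. RBM35A itself had no (0) single-gene probe set, so the cells are called RBM35A+ and RBM35A− from the labels alone. Of 13 intestinal epithelial markers, 12 were at 5 or more on all 4 arrays, with KRT20 below it. Of 9 fibroblast and endothelial markers on the array 0 were at 5 or more on all 4 arrays, and of 6 blood cell markers 1 was, HBB.

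In UBE3B the probe set 40622_r_at was higher with RBM35A in both fractions and the probe set 40623_at was not. The suffix of 40622_r_at marks a set for which the rules of probe selection were relaxed. It read 5.89 in polysomal RNA of RBM35A+ cells, against 5.30 in polysomal RNA of RBM35A− cells. Its values in total RNA were 7.07 in RBM35A+ cells, against 6.02 in RBM35A− cells. Both pairs of arrays thus had the RBM35A+ array on top, by 0.59 (1.51-fold) in polysomal RNA and by 1.04 (2.06-fold) in total RNA.

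The other UBE3B probe set, 40623_at, read 6.80 in polysomal RNA of RBM35A+ cells, against 7.17 in RBM35A− cells, a difference of −0.37. Total RNA gave 5.83 in RBM35A+ cells and 5.83 in RBM35A− cells. The departure of 40622_r_at from 40623_at was therefore 0.96 in polysomal RNA and 1.04 in total RNA, the largest of the 4 members and, by the smaller of its 2 values, the largest of all 496 pairs of probe sets measured in both fractions. In these bulk samples a shift in the kinds of cells in a culture and a shift in RNA per cell cannot be told apart.

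**Figure D1:**
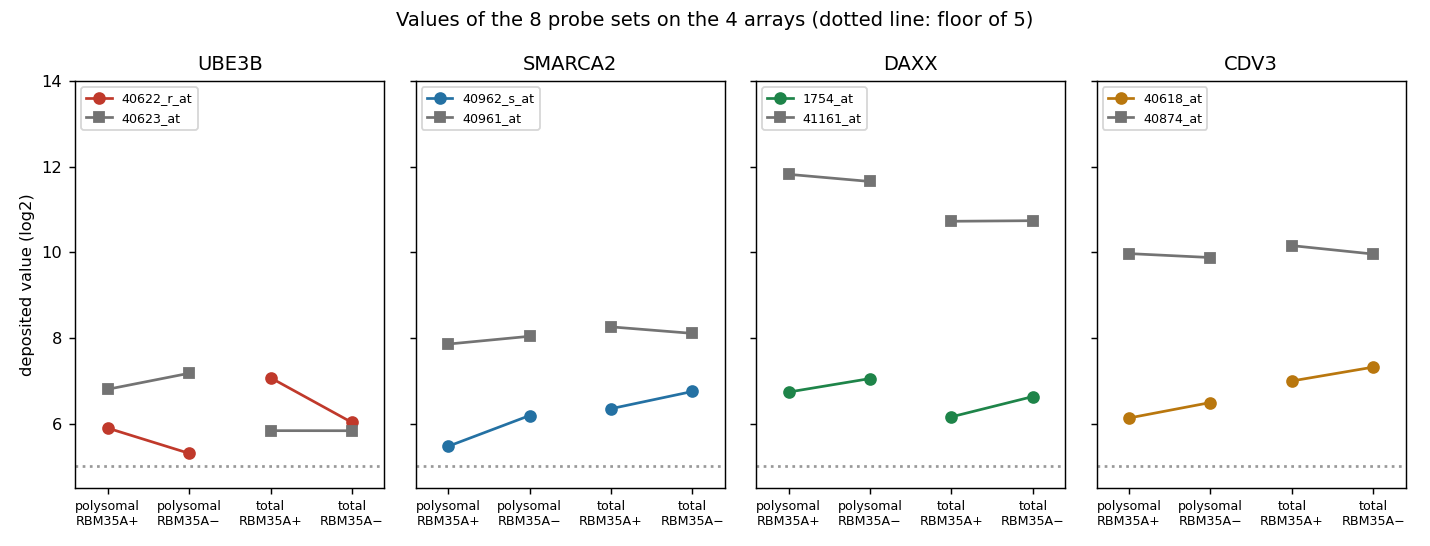
Deposited log2 values (vertical axis) of the 8 probe sets on the 4 arrays (horizontal axis, 1 point per array), with coloured circles for the dimmer and grey squares for the brighter probe set of each gene and lines joining RBM35A+ to RBM35A− within a fraction. The coloured line of UBE3B is higher at RBM35A+ than at RBM35A− in both fractions, and those of SMARCA2, DAXX and CDV3 are lower.

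In SMARCA2 the probe set 40962_s_at was lower with RBM35A in both fractions, while the differences of 40961_at were small and had opposite signs. The suffix of 40962_s_at marks probes shared by several transcripts. It read 5.47 in polysomal RNA of RBM35A+ cells, against 6.19 in RBM35A− cells, and thus fell by 0.72 (1.64-fold). Total RNA gave 6.35 in RBM35A+ cells and 6.75 in RBM35A− cells, a difference of −0.40.

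The other SMARCA2 probe set, 40961_at, read 7.86 in polysomal RNA of RBM35A+ cells, against 8.04 in RBM35A− cells (−0.18). In total RNA it read 8.26 in RBM35A+ cells, against 8.11 in RBM35A− cells (0.15). The departure of 40962_s_at from 40961_at was −0.54 in polysomal RNA and −0.55 in total RNA, so that the gap between the probe sets was nearly the same in the 2 fractions although each probe set was lower in the polysomal contrast than in the total RNA contrast. With a floor of 6 the polysomal departure was −0.0040, since the RBM35A+ value of 40962_s_at lies under 6.

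In DAXX the probe set 1754_at was lower with RBM35A and 41161_at was near its RBM35A− level. The dimmer set 1754_at read 6.73 in polysomal RNA of RBM35A+ cells, against 7.05 in RBM35A− cells (−0.32). Total RNA gave 6.16 in RBM35A+ cells, against 6.63 in RBM35A− cells (−0.47). Both RBM35A+ arrays were thus below their RBM35A− partners, by less than 1.5-fold.

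The bright DAXX set 41161_at read 11.82 in polysomal RNA of RBM35A+ cells, against 11.65 in RBM35A− cells (0.17). Its total RNA values were 10.72 in RBM35A+ cells and 10.74 in RBM35A− cells (−0.01). The departure of 1754_at from 41161_at was −0.48 in polysomal RNA and −0.46 in total RNA, with the total RNA value just past the limit of 0.45.

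The 2 probe sets annotated to CDV3 moved to opposite sides in both fractions. The probe set 40618_at read 6.13 in polysomal RNA of RBM35A+ cells, against 6.49 in RBM35A− cells (−0.36). In total RNA it read 6.99 in RBM35A+ cells, against 7.32 in RBM35A− cells (−0.32). For 40618_at the differences of the 2 fractions lay within 0.04 of each other, the closest of the 8 probe sets.

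The brighter CDV3 set 40874_at read 9.97 in polysomal RNA of RBM35A+ cells, against 9.88 in RBM35A− cells (0.09). In total RNA it read 10.16 in RBM35A+ cells, against 9.96 in RBM35A− cells (0.20). The departure of 40618_at from 40874_at was −0.45 in polysomal RNA and −0.52 in total RNA, which made CDV3 the member closest to the limit. The gene assigned to each probe set is that of the array annotation and was not checked against probe sequences here. The assignment of 40874_at to CDV3 is uncertain, and if it reads another gene, the CDV3 departure compares 2 genes.

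**Figure D2:**
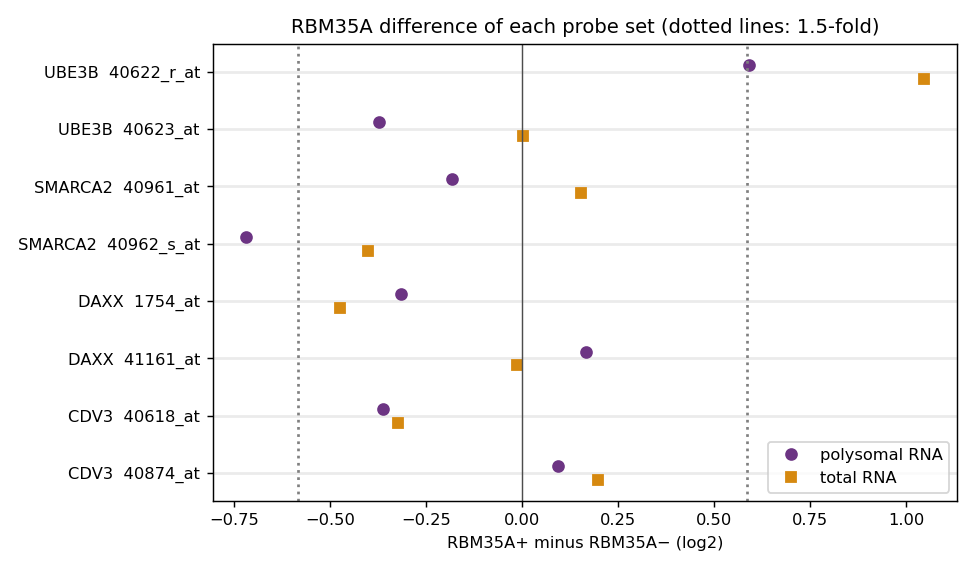
RBM35A+ minus RBM35A− differences (horizontal axis, log2) of the 8 probe sets (vertical axis), with circles for polysomal and squares for total RNA and dotted lines at 1.5-fold. UBE3B 40622_r_at lies on the higher side in both fractions (0.59 and 1.04), and SMARCA2 40962_s_at on the lower side (−0.72 and −0.40).

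Few of these differences were large in themselves. In polysomal RNA 1 of the 8 probe sets, UBE3B 40622_r_at, was 1.5-fold higher in RBM35A+ cells, where 0.723% of all 3871 measured probe sets were, and 1, SMARCA2 40962_s_at, was 1.5-fold lower, where 1.7% were. In total RNA 1, UBE3B 40622_r_at, was 1.5-fold higher, where 1.51% of 3853 were, and 0 were 1.5-fold lower, where 0.986% were. Because the choice of members used these contrasts, the shares are given only as the setting of the counts.

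In UBE3B the departing probe set was higher in RBM35A+ cells, and in SMARCA2, DAXX and CDV3 it was lower. In all 4 genes the dimmer probe set of the pair, with mean levels of 6.07 in UBE3B, 6.19 in SMARCA2, 6.64 in DAXX and 6.73 in CDV3, had the larger RBM35A difference in both fractions. Over all 496 pairs the dimmer set had the larger difference in both fractions in 125 (25.2%). These differences were used to choose the members, so nothing is read from the count over the members.

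The spread of RBM35A differences depended on the level, more in total than in polysomal RNA. Among probe sets with a mean of 6 to 7 the SD over probe sets was 0.248 in polysomal and 0.275 in total RNA. Among those of 11 to 12, where DAXX 41161_at lay in polysomal RNA, it was 0.233 in polysomal and 0.158 in total RNA. In total RNA the dimmer probe sets of UBE3B, SMARCA2 and DAXX lay at 6 to 7, the levels with the widest spread, and that of CDV3 at 7 to 8, where the SD was 0.247. The part of signal level in the departures was not tested.

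**Figure D3:**
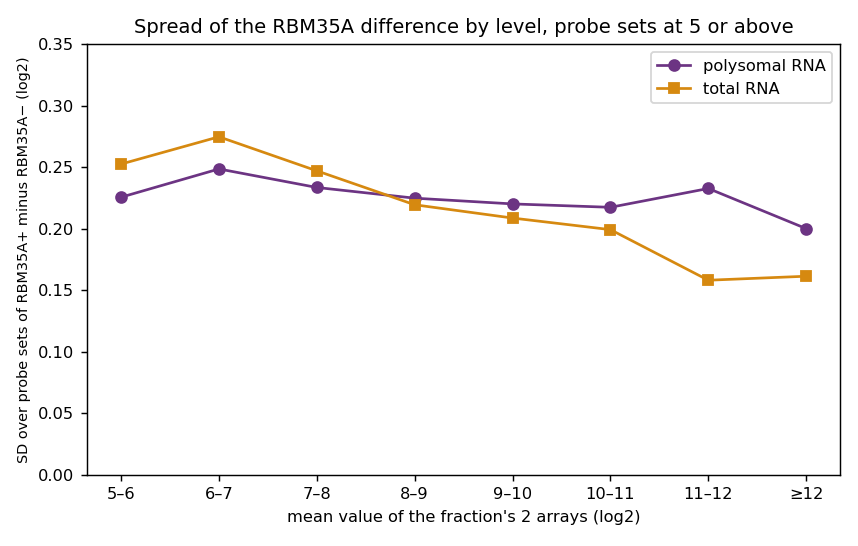
SD over probe sets of the RBM35A+ minus RBM35A− difference (vertical axis, log2) by mean level of the fraction's 2 arrays (horizontal axis, log2), for polysomal (circles) and total RNA (squares). The total RNA SD is 0.275 at levels of 6 to 7 and 0.158 at 11 to 12.

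Across the array, departures of this size in both fractions were uncommon. The median size of the departure over 496 pairs in 358 genes was 0.15 in polysomal RNA and 0.16 in total RNA, and the 90th percentile was 0.48 and 0.44. A departure of 0.45 or more was reached by 12.7% of pairs in polysomal RNA and by 9.88% in total RNA. In the same direction in both fractions it was reached by 6 of 358 genes (1.68%), namely the 4 members, CD44 and RAB4A. The count takes the uncertain annotation of CDV3 as given. In 4 further pairs both departures were past 0.45 but in opposite directions.

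Departures in the 2 fractions were weakly related over pairs. Pearson's r was 0.22 over the 496 pairs and 0.19 without the 4 members, and the sign was shared by 57.7% of pairs. Pairs of a gene share probe sets, so they are not independent, and the correlation is given as a description.

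**Figure D4:**
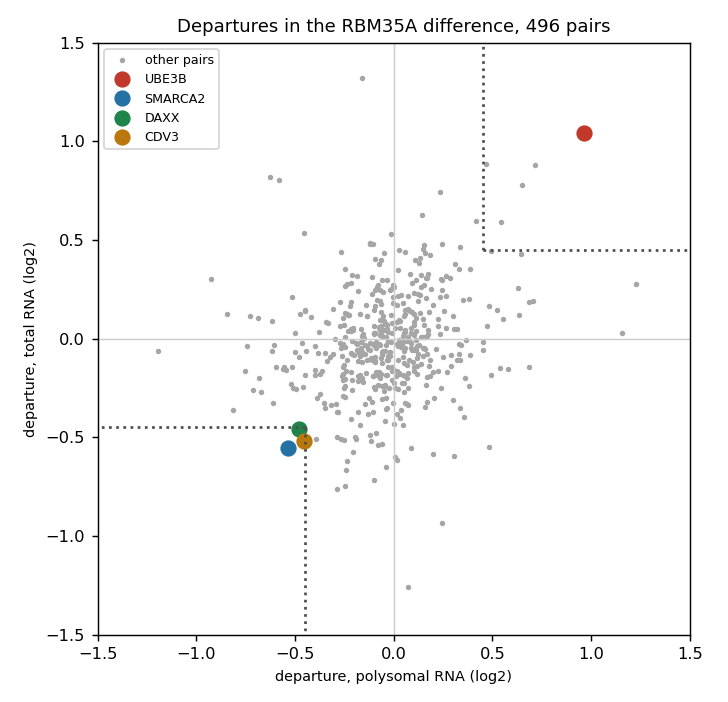
Departure of the dimmer from the brighter probe set of a gene in the RBM35A+ minus RBM35A− difference, in polysomal RNA (horizontal axis, log2) and in total RNA (vertical axis, log2), with 1 point per pair of probe sets and dotted corners at 0.45. UBE3B (0.96, 1.04) lies at the upper right, and SMARCA2, DAXX and CDV3 lie together just past the lower left corner.

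CD44, a cell surface receptor for hyaluronan with exons regulated by ESRP1, was another gene past the limit in both fractions. Its probe set 1125_s_at read 6.49 in polysomal RNA of RBM35A+ cells, against 5.74 in RBM35A− cells, and 8.19 in total RNA of RBM35A+ cells, against 7.59 in RBM35A− cells. It departed from 3 other CD44 probe sets by 0.47 to 0.71 in polysomal and by 0.78 to 0.88 in total RNA, each departure in the direction of UBE3B 40622_r_at.

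In RAB4A, an endosomal GTPase, the brighter set 621_at was lower in RBM35A+ than in RBM35A− cells, with differences of −0.54 in polysomal and −0.63 in total RNA. The dim set 1686_g_at, of which 1 value was raised to the floor, was at 0.01 and −0.04, so that it departed from 621_at by 0.54 in polysomal and 0.59 in total RNA. A further RAB4A set, 39244_at, lay between, at −0.23 and −0.25. Just under the limit were ERBB3, a receptor of the EGFR family, with 0.49 in polysomal and 0.44 in total RNA, the transcription factor MYC with 0.65 and 0.43, and the actin-regulating kinase LIMK2 with 0.42 and 0.60. DAXX with 0.46 and CDV3 with 0.45 as their smaller departures were just inside it.

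Of the 23 genes listed as having ESRP1-regulated exons, 16 were on the array, and 2, CD44 and ITGA6, had at least 2 measured probe sets. ITGA6, the alpha subunit of a laminin receptor, had pairs that departed by −1.20 in polysomal but by −0.06 in total RNA (33410_at against 41266_at), and so did not pass the limit. By the brightest probe set of each gene, 10 genes of the list were measured in polysomal and 8 in total RNA, and 0 passed 1.5-fold. Over all genes 0.767% were higher and 1.3% lower in polysomal RNA, and 1.54% and 0.663% in total RNA. The 0 rests on that choice of probe set. Among the dimmer sets, CD44 1125_s_at was higher by 0.75 in polysomal and 0.60 in total RNA, past 1.5-fold in both. ITGA6 33410_at was lower by more than 1.5-fold in polysomal RNA. By the brightest sets TCF7L2, a Wnt pathway transcription factor, was the highest in polysomal RNA at 0.38. LSR, a protein of tricellular junctions, was the lowest at −0.22. In total RNA ITGA6 was the highest at 0.18 and CD44, read by 2036_s_at, the lowest at −0.18. None of the 4 members was in this list.

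Polysomal minus total RNA was not itself used to choose the members, but it is formed from the same 4 values of each probe set. It is therefore not independent of the choice. The gap between its departures in the 2 states equals the gap between the RBM35A departures in the 2 fractions. In this contrast the probe sets of UBE3B lay far apart. In RBM35A+ cells 40622_r_at was lower in polysomal than in total RNA, with a difference of −1.18, while 40623_at was higher, with 0.97. In RBM35A− cells the differences were −0.72 for 40622_r_at and 1.34 for 40623_at. The departure between them was −2.14 in RBM35A+ and −2.06 in RBM35A− cells, which lay at percentiles 92.3 and 94.6 of the sizes over all pairs. The 5′ control probe sets departed from the 3′ ones by −5.05 in RBM35A+ and −4.20 in RBM35A− cells for beta-actin in this contrast, and by −2.46 and −1.67 for GAPDH. Whether the UBE3B probe sets differ in position along the transcript was not tested.

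The other 3 members lay nearer the middle of the pairs in this contrast. The SMARCA2 set 40962_s_at had a polysomal minus total difference of −0.88 in RBM35A+ and −0.56 in RBM35A− cells, and 40961_at had −0.40 and −0.07. The DAXX set 1754_at had 0.58 in RBM35A+ and 0.42 in RBM35A− cells, and 41161_at had 1.10 and 0.92. The CDV3 set 40618_at had −0.87 in RBM35A+ and −0.83 in RBM35A− cells, and 40874_at had −0.19 and −0.08.

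The departures of SMARCA2 (−0.48 in RBM35A+ and −0.49 in RBM35A− cells) and DAXX (−0.52 and −0.50) were below the median size of 0.64 in RBM35A+ and 0.56 in RBM35A− cells. That of CDV3 (−0.68 and −0.75) was slightly above it. At a departure of 1 or more in the same direction in both states, 1 of the 4 members, UBE3B, was counted, against 103 of 358 genes (28.8%). The departure was negative in all 4 members in both states, that is, the dimmer probe set was the lower one in polysomal relative to total RNA, as it was in 276 of the 496 pairs (55.6%). The departures of the 2 states went together over all pairs (Pearson's r = 0.95), so they are not separate evidence. The medians over all 3549 probe sets measured in both fractions were 0.06 in RBM35A+ and 0.08 in RBM35A− cells, and the levels of the 2 fractions rest on separately normalized arrays.

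**Figure D5:**
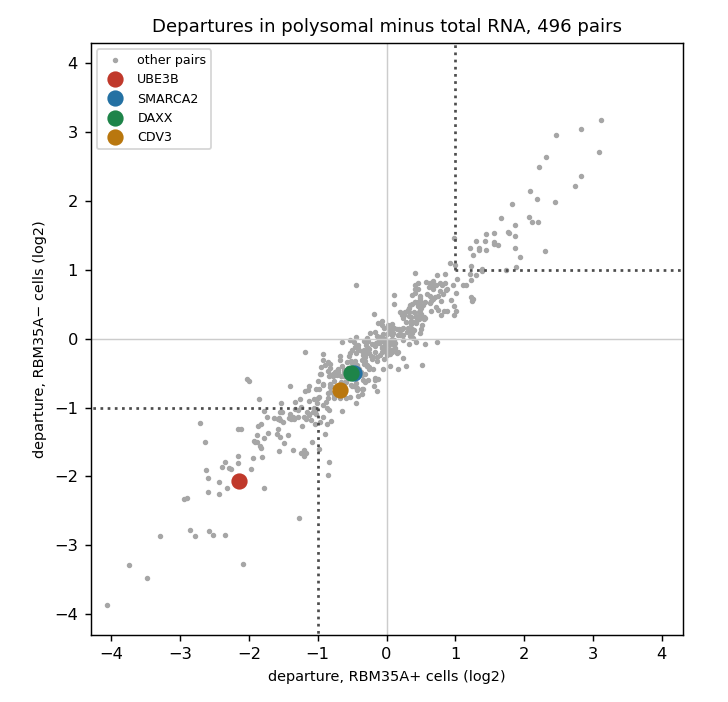
Departure of the dimmer from the brighter probe set of a gene in polysomal minus total RNA, in RBM35A+ cells (horizontal axis, log2) and in RBM35A− cells (vertical axis, log2), with 1 point per pair and dotted corners at 1. UBE3B (−2.14, −2.06) lies past the lower left corner, and SMARCA2, DAXX and CDV3 lie among the bulk of the pairs.

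Control probe sets at the 5′ end, middle and 3′ end of a transcript give the size of departures between stretches of that transcript on these arrays. Whether these departures went with position was not tested, as each group had 1 array. For beta-actin the RBM35A+ minus RBM35A− difference of the 5′ probe set departed from that of the 3′ probe set by −0.84 in polysomal RNA and by 0.01 in total RNA. For GAPDH, a glycolytic enzyme, the values were −0.65 in polysomal and 0.13 in total RNA. In the polysomal contrast these control departures were larger in size than those of SMARCA2, DAXX and CDV3 and smaller than that of UBE3B. In the total RNA contrast they were smaller than the departures of all 4 members, which lay between 0.46 and 1.04 in size. These control sets read 14.20 to 14.98 in total RNA, far above the dimmer member sets. The SD of total RNA differences over probe sets was 0.161 at levels of 12 or more, against 0.275 at 6 to 7. The sizes are therefore not matched for level. Probe sets in the middle of these transcripts departed from the 3′ ones by −0.42 in polysomal and 0.33 in total RNA for beta-actin and by −0.20 and 0.04 for GAPDH. The control sets of TFRC, the transferrin receptor, lay under 5 in polysomal RNA. In total RNA its middle set departed from the 3′ set by −0.71, more than in SMARCA2, DAXX and CDV3, and its 5′ set by 0.00. The part of probe position in the members' departures was not tested.

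Of the 26 relatives of UBE3B in the HECT family, 15 were on the array and 6 were measured in polysomal and 7 in total RNA. None (0) was 1.5-fold higher or lower in either fraction, against 0.767% of genes higher and 1.3% lower in polysomal RNA and 1.54% higher and 0.663% lower in total RNA. Their median difference was 0.08 in polysomal and −0.08 in total RNA, against 0.02 and 0.00 over all genes. The widest were HUWE1 in total RNA, with 9.48 in RBM35A+ and 8.99 in RBM35A− cells (0.49), and WWP1 in total RNA, with 5.08 and 5.52 (−0.44). In polysomal RNA the highest was AREL1 at 0.21 and the lowest TRIP12 at −0.01. UBE3A, the 1 relative with a measured pair, had departures of 0.16 in polysomal and 0.20 in total RNA.

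Of 25 other SWI/SNF subunits, 17 were on the array, and 11 were measured in polysomal and 9 in total RNA. In polysomal RNA 0 were 1.5-fold higher and 1 was lower, BCL7B, by at least 0.72, since its RBM35A+ value was raised to the floor. Over all genes 0.767% were higher and 1.3% lower in polysomal RNA. In total RNA BCL7B was at −0.40, the lowest of the list, and DPF2, a subunit that reads histone marks, was the highest at 0.38. In polysomal RNA the highest was ACTB, beta-actin, at 0.10. The medians were 0.04 in polysomal and 0.06 in total RNA, against 0.02 and 0.00 over all genes. The core subunit SMARCC1 had departures of −0.25 and 0.13, and SMARCD2 had −0.62 in polysomal and −0.06 in total RNA.

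Of 15 partners of DAXX, 10 were on the array, and 4 were measured in polysomal and 5 in total RNA. None (0) passed 1.5-fold in either fraction. Over all genes 0.767% were higher and 1.3% lower in polysomal RNA, and 1.54% and 0.663% in total RNA. The medians were 0.19 in polysomal and 0.32 in total RNA, against 0.02 and 0.00 over all genes. PML, the scaffold of PML nuclear bodies, was the highest in total RNA, at least 0.51 higher in RBM35A+ cells with its RBM35A− value raised to the floor, and was not measured in polysomal RNA. ATRX, the remodeller that works with DAXX, was the highest in polysomal RNA, with 7.44 in RBM35A+ and 7.08 in RBM35A− cells (0.36). In total RNA ATRX was at least 0.35 higher in RBM35A+ cells, with 1 value raised to the floor. HIRA, another H3.3 chaperone, was the lowest, with −0.36 in polysomal and −0.22 in total RNA. The pair of ATRX departed by −0.75 in polysomal but by −0.03 in total RNA. Of the 4 genes of these 3 lists with a measured pair, 0 passed the limit of 0.45 in both fractions.

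For each dimmer member probe set the nearest measured probe set of another gene was found. Distance was taken over the 2 RBM35A differences and the 2 polysomal minus total differences, and the nearest need not be close. The nearest to UBE3B 40622_r_at was one of ARVCF, a catenin of the p120 family, at a distance of 0.58. The nearest to SMARCA2 40962_s_at was one of DVL1, a Wnt signalling protein, at 0.25. The nearest to DAXX 1754_at was one of AQP3, a water and glycerol channel, at 0.13, and the nearest to CDV3 40618_at was one of COPS2, a subunit of the COP9 signalosome, at 0.10. Of these 4, UBE3B 40622_r_at had the most distant neighbour, and the ARVCF set was at 0.14 in polysomal RNA against its 0.59. The distances use the RBM35A differences by which the members were chosen, so nothing is read from this order. With 4 arrays, a short distance can arise between unrelated genes.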

How the data were processed

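Log2 values of 12626 probe sets on 4 arrays were used as deposited. The authors made them with GCRMA, per the submitters' processing notes, which give no version. Sorted values differed by at most 6.61e-06 between the polysomal arrays and 4.29e-06 between the total RNA arrays, so each fraction had been quantile normalized apart from the other. A shift of most genes in 1 array would have been removed by this.

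Names came from the array annotation, 10934 of 10943 updated through gene ID with a RefSeq table (GRCh38.p14). Values under 5 were raised to 5, and a probe set was measured in a fraction with at least 1 of its 2 arrays at 5 or more. Departures were taken as the dimmer minus the brighter probe set of a gene, over all pairs measured in both fractions. Lists used each gene's probe set with the highest mean. Named genes were the members, other genes past the limit, the 3 just under it, the nearest probe set of another gene to each dimmer member, the extremes of each list, and controls. Members, lists and settings were chosen with earlier results of these data known. Calculations used Python 3.11.15, pandas and statsmodels 0.14.6. The counting of departures was tested on simulated data, with departures well past the limit and a smaller spread than in these data. That test does not cover departures near the limit. Alternatives were floors of 4 and 6 and none, removal of the level trend, other thresholds, and probe sets without shared sequence. No test was made, as each group had 1 array. The number of arrays limits the precision.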

Additional observations from a re-analysis of the deposited data

Results flagged for a closer look

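In 3 of the 8 probe sets the RBM35A difference had opposite signs in the 2 fractions. UBE3B 40623_at was at −0.37 in polysomal and 0.00 in total RNA, a difference of −0.38 between the fractions. SMARCA2 40961_at was at −0.18 and 0.15, a difference of −0.33. DAXX 41161_at was at 0.17 and −0.01, a difference of 0.18. These differences were not tested, since each group had 1 array. For UBE3B 40623_at and DAXX 41161_at the total RNA difference was so small that its sign means little. Over all 3549 probe sets measured in both fractions, 40.5% had opposite signs, and the SD of the difference between fractions was 0.276. The 3 of 8 is thus near the share of the array. The widest difference between fractions was that of UBE3B 40622_r_at (−0.45), whose signs agreed. All 3 probe sets with opposite signs were the brighter one of their gene.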

How the results depend on the processing

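All 152 alternative values of the member differences and departures kept their direction, but many of them could not change. The member values all lay above 5, so a floor of 4 or none returned the main values. The floor of 6 gave no value for 8 further results, all of UBE3B. An SD of 1 probe set's difference was taken from the disagreement between probe sets (0.195 in polysomal and 0.194 in total RNA, and 0.790 in RBM35A+ and 0.719 in RBM35A− cells for polysomal minus total). Against this, times the square root of 2 for departures, 90 of 92 alternative RBM35A differences and departures moved by less. That count includes those that could not change. The other 2 came with a floor of 6: SMARCA2 40962_s_at was then at −0.19 and the SMARCA2 departure in polysomal RNA at −0.0040. That floor also moved the polysomal minus total difference of SMARCA2 40962_s_at in RBM35A+ cells to −0.35. UBE3B gave no departure with that floor, because 40622_r_at lay under 6 on both polysomal arrays and 40623_at on both total RNA arrays. The 6 of 358 departing genes (1.68%) became 11 of 483 (2.28%) with a floor of 4 and 3 of 262 (1.15%) with a floor of 6. They became 2 of 154 (1.30%) without probe sets with a letter suffix, 18 of 358 at a threshold of 0.3 and 2 of 358 at 0.6. The members among them were 4, 2, 2, 4 and 1 in these settings. Without probe sets with a letter suffix, UBE3B (40622_r_at left out) and SMARCA2 (40962_s_at left out) had no pair left. The 103 of 358 genes departing in polysomal minus total RNA (28.8%) became 41 of 154 (26.6%) without probe sets with a letter suffix. At a threshold of 0.5 they became 187 of 358. BCL7B, the SWI/SNF subunit lower in polysomal RNA, was not counted with a floor of 6 or at 2-fold (0), and 1 DAXX partner, PML, was 1.5-fold higher in total RNA with a floor of 4 or none. The labels number no replicates, and an additive fit of RBM35A state and fraction was left out, since the members were chosen on that contrast. Dim signal limits UBE3B and SMARCA2, which held the member values under 6.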
